A study of Homo sapiens with 10 samples.

Results

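The genes described here are 7 transcription factor genes of the heart, GATA4, NKX2-5, TBX5, HAND1, HAND2, MEF2C and ISL1, each taken as a locus of its gene body with 10 kb on either side. They were chosen by name, as 7 of the 19111 protein-coding genes with a canonical start on chromosomes 1 to 22. Human induced pluripotent stem cells (hiPSCs) of the line PB010.5, undifferentiated and carrying a FUCCI cell cycle reporter, were digested for 5 min with micrococcal nuclease (MNase), an enzyme that cuts the DNA between nucleosomes, with 10, 6, 3, 1 or 0.5 U of enzyme. The 10 samples are these 5 digestions, each made into 1 library that was read both in 150-bp and in 50-bp paired-end runs. The values come from a single list of 12921589 nucleosome positions called on pooled libraries, of which 2405 had their midpoint in the 7 loci. It gives neither a value per amount of enzyme nor a replicate, so no test was made, and it gives no expression, so the labelled cell type could not be checked against its markers.

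GATA4, NKX2-5 and TBX5 are DNA-binding proteins that act together at the regulatory elements of heart muscle genes, and MEF2C joins them in activating muscle genes. HAND1 and HAND2 pattern the ventricles, and ISL1 marks the progenitors of the second heart field. In pluripotent cells such regulators of development are known to be expressed at low levels or not at all, and many lie in long stretches of CpG-rich sequence. Nucleosomes over a start site can limit the access of the transcription machinery to it.

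A position spans 140 bp and carries 1 score, a height in the authors' own unit, which rises in steps of 1.23 and has a median of 14.8 over the list, or 12 steps. The lower and upper quartiles of the list are 9.87 and 19.7, and the highest score is 149. The reads behind a score are unknown, so differences of 1 step are not read as differences. Of the midpoints, 94.4% lie on a grid of 10 bp, which limits every distance given below. The shortest distance between neighbouring midpoints on the autosomes was 100 bp. Of all such distances 26.1% were under 140 bp, where the intervals of neighbouring positions overlap. Because scores rise with the share of G and C in the sequence, each gene was ranked among the protein-coding genes whose promoter GC, over 1000 bp centred on the start, was within 2 percentage points of its own. A percentile of 50 is the middle of those genes. These ranks describe 1 list and are not tests.

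The 7 starts did not share one arrangement of nucleosomes. Measured from midpoint to midpoint, the distance across the canonical start ran from 160 to 445 bp. Its median was 250 bp against 230 bp over all protein-coding genes, and the median percentile was 57.5. This percentile was 79.2 with the 5′-most start of each gene and 43.8, below the middle, with only the positions at or above the list median. At NKX2-5, HAND1 and ISL1 the midpoints were more than 300 bp apart, which makes 3 of 7, where 27.1% of the 19111 protein-coding genes passed that distance. The start itself lay inside the interval of a position at GATA4, NKX2-5, TBX5 and HAND1, 4 of 7, against a background of 50.6%. A position from the top 5% of the list by score, with a score of at least 29.6, lay within 1 kb of the start at 6 of 7 genes, all but MEF2C, against 75.2% of protein-coding genes. With 7 genes, none of these counts stands far from its background. The mean score within 500 bp of the start ran from 17.3 at ISL1 to 36.0 at HAND1, with a median of 20.5 against 20.7 over all genes. The position downstream of the start had a higher score than the one upstream at 5 of 7 genes, all but TBX5 and ISL1, as it had at 60.3% of protein-coding genes.

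**Figure D1:**
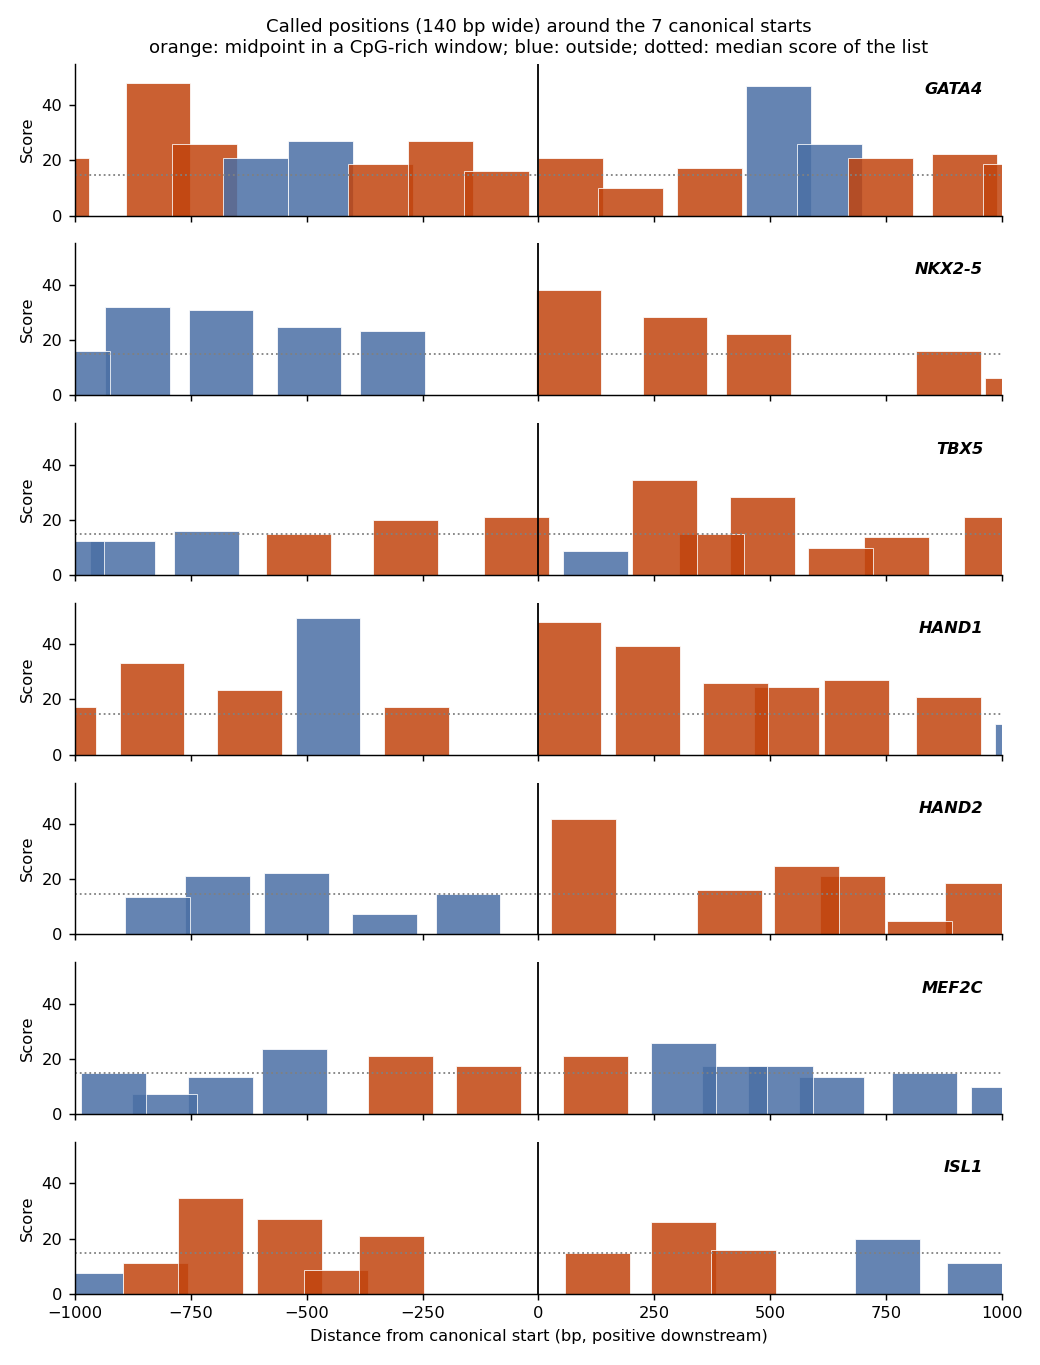
Called positions within 1000 bp of the canonical start of each gene, as bars 140 bp wide at their distance from the start (x axis, bp, downstream to the right) and their score (y axis). The line at 0 is the start, the dotted line is the list median of 14.8, and orange bars have their midpoint in a CpG-rich window; HAND1 has a score of 48.1 over its start and 49.4 upstream of it, and ISL1 has an empty stretch across it.

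GATA4 encodes a zinc finger factor needed for the early heart (ENSG00000136574.19, plus strand, chromosome 8 from 11676959 to 11760002 of GRCh38). Its canonical transcript starts at 11704202, inside the annotated gene, 27243 bp downstream of the 5′-most start. The promoter GC was 63.3%. The nearest downstream position, from 11704202 to 11704341 in the 5′UTR, began on the first base of the transcript and had a score of 21.0. The nearest upstream position lay from 11704042 to 11704181 and scored 16.0. The distance across the start, 160 bp, was the narrowest of the 7 genes, at percentile 18.6. Called positions thus followed each other across this start without a wide stretch between them. The mean score of the 7 positions within 500 bp was 19.6, at percentile 27.3. High scores flanked this region, with 48.1 at 821 bp upstream and 46.9 at 519 bp downstream, above 99.9% and 99.8% of the list. GATA4 has 8 annotated starts, of which 4 lie within 100 bp of the canonical one, the canonical start included. Over all 8, the distance ran from 160 to 240 bp and none passed 300 bp. A position covered 7 of these 8 starts.

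TBX5, a T-box factor of the heart and forelimb (ENSG00000089225.20, minus strand, chromosome 12 from 114353911 to 114408442), resembled GATA4 in the distance across its start, 170 bp at percentile 21.4. Its canonical transcript starts at 114406144, 2298 bp downstream of the 5′-most start, in a promoter with a GC of 56.9%. The upstream position, from 114406122 to 114406261, ran over the start itself with a score of 21.0. The downstream position, from 114405952 to 114406091 in the 5′UTR, had a score of 8.64, above 15.8% of the list and at percentile 5.71 for a position in this place. It was the lowest downstream score of the 7 genes. Further into the 5′UTR the scores were 34.5 at 273 bp, 14.8 at 373 bp and 28.4 at 483 bp, and the mean within 500 bp was 21.2, at percentile 42.1. The 5 starts of TBX5 had distances of 130 to 230 bp and a position covered each of them. The antisense long non-coding RNA gene TBX5-AS1, which begins 1987 bp upstream on the opposite strand and overlaps the gene, had 170 bp between the midpoints across its start and a downstream score of 37.0.

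NKX2-5, a homeobox factor of the cardiac lineage (ENSG00000183072.10, minus strand, chromosome 5 from 173232109 to 173235311), had an empty stretch upstream of a high-scoring position. Its canonical start is at 173235206, with a promoter GC of 61.3%. The downstream position, from 173235072 to 173235211 over the 5′UTR and the start, had a score of 38.2, above 99.0% of the list. Among the downstream positions of genes with its promoter GC it was at percentile 79.3. The upstream position was centred 315 bp away, from 173235452 to 173235591, with a score of 23.4. The 380 bp between the midpoints put NKX2-5 at percentile 85.8, and its mean start-region score of 27.4 at percentile 78.1. No midpoint lay in the 200 bp upstream. All 3 annotated starts lay between these same midpoints, the canonical one inside the downstream position and the other 2 outside any position. Further upstream followed scores of 24.7, 30.8 and 32.1 at 495, 685 and 865 bp, each 180 or 190 bp beyond the one before.

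HAND1 and HAND2 encode basic helix-loop-helix factors of the ventricles, and they differed in the score of their start regions although each had a high-scoring position in the 5′UTR. HAND1 (ENSG00000113196.3, minus strand, chromosome 5 from 154474972 to 154478227) has 1 annotated start, at 154478227, and a promoter GC of 64.3%. The position over its first bases, from 154478092 to 154478231, had a score of 48.1, above 99.9% of the list. Among the downstream positions of genes with its promoter GC it was at percentile 93.4. The next in the coding sequence, centred 236 bp downstream, had 39.5. The upstream position from 154478422 to 154478561 had 17.3, and behind it, 454 bp from the start, lay the highest score of the locus, 49.4. The mean within 500 bp was 36.0, at percentile 96.6, the highest of the 7 genes. The midpoints across the start were 330 bp apart, at percentile 79.4. HAND2 (ENSG00000164107.9, minus strand, chromosome 4 from 173524969 to 173530229) starts at 173530229, with a promoter GC of 54.3%. Its downstream position, from 173530062 to 173530201 in the 5′UTR, had a score of 41.9, above 99.5% of the list. This was percentile 87.0 among the downstream positions of genes with its promoter GC. The upstream position, from 173530312 to 173530451, had 14.8. The midpoints were 250 bp apart, at percentile 57.5. The next positions had scores of 16.0 at 413 bp downstream and 7.40 at 332 bp upstream, and the mean within 500 bp was 20.0, at percentile 38.0.

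The 250 bases before each of these starts are shown because the called positions leave different parts of them free. They run 5′ to 3′ on the strand of the gene, from RefSeq promoter sequences on GRCh38.p14, with the bases inside the interval of a called position in capitals and the bases between positions in lower case. The last base shown is the one before the start.
HAND1 promoter, chr5:154478228-154478477, minus strand: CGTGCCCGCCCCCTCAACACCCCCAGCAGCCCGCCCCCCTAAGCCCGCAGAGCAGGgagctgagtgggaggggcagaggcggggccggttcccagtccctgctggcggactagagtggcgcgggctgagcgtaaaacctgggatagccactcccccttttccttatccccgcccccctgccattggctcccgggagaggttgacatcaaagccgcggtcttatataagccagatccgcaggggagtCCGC
HAND2 promoter, chr4:173530230-173530479, minus strand: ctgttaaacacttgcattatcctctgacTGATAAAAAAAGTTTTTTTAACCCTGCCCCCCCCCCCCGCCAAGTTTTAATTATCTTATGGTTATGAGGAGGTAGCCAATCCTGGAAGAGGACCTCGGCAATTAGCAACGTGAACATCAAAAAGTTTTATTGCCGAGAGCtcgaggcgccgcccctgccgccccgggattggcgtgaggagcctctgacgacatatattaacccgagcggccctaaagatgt
In HAND1, 190 of the 250 bases lay between positions, in 1 run that ended 4 bases before the start, with a GC content of 63.7% against 78.3% in the bases inside positions. In HAND2, 110 bases lay outside positions with a GC content of 57.3%, and the 140 bases of 1 whole interval had 43.6%, with runs of A and T inside it. At HAND1 the covered bases were thus the richer in G and C, and at HAND2 the poorer. The short words searched in these sequences fell in both kinds of stretch. HAND1 held a CCAAT box (CCAAT) 69 bases before the start, outside positions, and GC boxes (GGGCGG) at 82 bases, outside, and at 220 and 245 bases, inside. HAND2 held CCAAT at 55 bases, outside, and at 147 bases, inside, and GC boxes at 65 and 74 bases, outside. The GATA word AGATAA lay at 172 bases, inside the interval. An E-box (CANNTG) and the NKX2-5-like word AAGTG both lay at 242 bases, outside. Distances are counted to the first base of the match on the strand of the gene, and matches on the opposite strand appear as the reverse complement.

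ISL1, a LIM homeodomain factor (ENSG00000016082.15, plus strand, chromosome 5 from 51383448 to 51394730), had the widest distance across a canonical start and the lowest start-region score of the 7 genes. Its canonical start at 51383448 is the 5′ end of the gene, with a promoter GC of 61.8%. The downstream position from 51383507 to 51383646, in the 5′UTR, had a score of 14.8, the median of the list. The upstream position from 51383062 to 51383201 had 21.0. Their midpoints were 445 bp apart, at percentile 93.3, and the mean score within 500 bp was 17.3, at percentile 13.1. The start of the divergent long non-coding RNA gene ISL1-DT, on the opposite strand 116 bp upstream, lay in the same stretch. Nearly the whole of the 250 bases before the start was therefore free of called positions, as the case of the letters shows (same source and same use of capitals).
ISL1 promoter, chr5:51383198-51383447, plus strand: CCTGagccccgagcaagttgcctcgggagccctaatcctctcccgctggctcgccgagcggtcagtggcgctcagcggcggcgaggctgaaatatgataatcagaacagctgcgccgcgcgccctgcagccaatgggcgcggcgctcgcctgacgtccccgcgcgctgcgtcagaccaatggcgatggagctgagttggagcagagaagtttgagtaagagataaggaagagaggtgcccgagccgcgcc
Of these bases, 246 lay outside positions, with a GC content of 65.0%, and the first part of the sequence lies within ISL1-DT. They held CCAAT at 75 and 121 bases before the start, the GATA word AGATAA at 31 bases and an E-box (CANNTG) at 144 bases, all outside positions. The second ISL1 start, 224 bp downstream, had 185 bp between its midpoints and the third, 2756 bp downstream, had 120 bp, so the wide stretch belonged to the canonical start alone among the 3.

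Words were searched on both strands from 250 bases before to 50 after the start, in the 4 genes whose canonical start matched a RefSeq promoter entry, HAND1, HAND2, MEF2C and ISL1. CCAAT was found in 3 of 4, and in 36.6% of 15345 protein-coding promoters of the same length. GGGCGG was found in 2 of 4 against 59.2%, AGATAA in 2 of 4 against 7.46% and CANNTG in 3 of 4 against 64.4%. The NKX2-5-like word AAGTG was found in 2 of 4 against 40.4%, in HAND2 and MEF2C, and 1 match in each of them shares bases with an E-box. TATAAA (9.63% of promoters), the T-box word GGTGTGA (3.26%) and the MEF2 word CTAAAAATA (0.345%) were not in these 4 windows. A match is only a run of letters, and whether a factor binds there was not measured.

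MEF2C, a MADS-box factor of muscle, nerve and vessel cells (ENSG00000081189.17, minus strand, chromosome 5 from 88717117 to 88904257), differed from the other 6 in length, in GC and in the number of its starts. It spans 187 kb with 52 distinct annotated starts, and its promoter GC of 50.5% was the lowest of the 7. At the canonical start, 88883184, the midpoints were 230 bp apart, at percentile 54.3. The downstream position from 88882992 to 88883131 had a score of 21.0, the upstream one from 88883222 to 88883361 had 17.3, and the mean within 500 bp was 20.5, at percentile 53.1. In each of these values MEF2C lay near the middle of genes with its promoter GC. The antisense gene MEF2C-AS1 begins 144 bp upstream on the opposite strand, with 190 bp between the midpoints across its own start. The 52 starts had distances from 100 to 3720 bp, with a median of 220 bp. A position covered 28 of them, and 14 had more than 300 bp between midpoints. The widest distance, 3720 bp, held 5 starts at the 5′ end of the gene, about 21 kb upstream of the canonical one, and none of these 5 had a position within 500 bp. Over the 75 distinct starts of the 7 genes, every distance over 445 bp belonged to MEF2C.

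**Figure D2:**
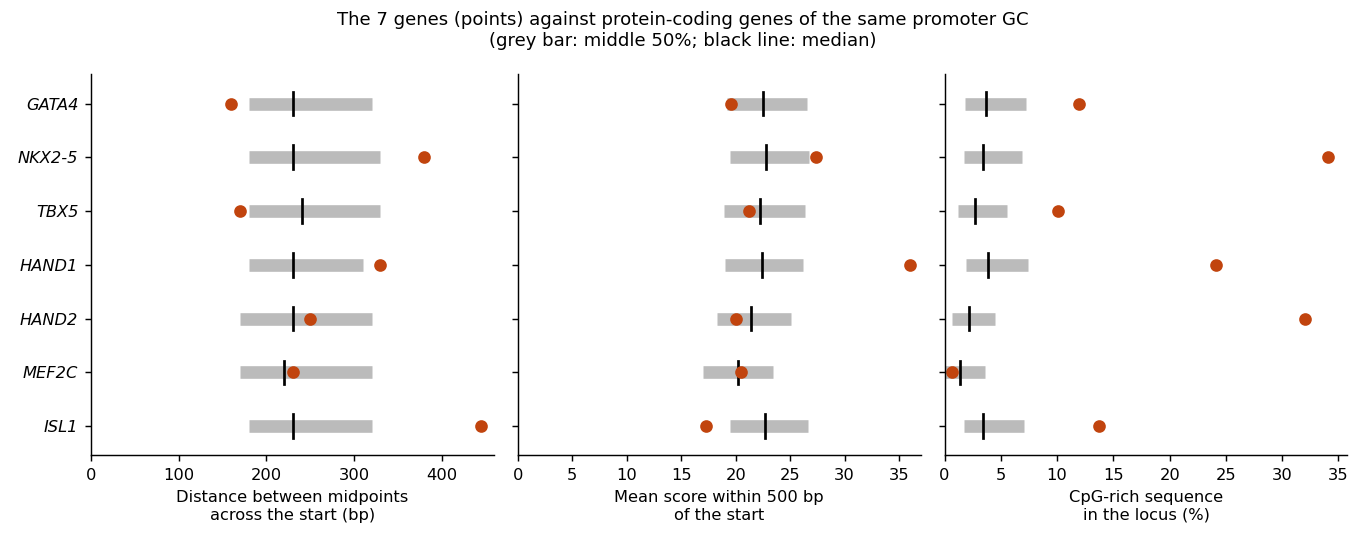
Each gene (orange point) against protein-coding genes whose promoter GC was within 2 percentage points (grey bar, middle 50% of genes; black line, median), for the distance between midpoints across the start (bp), the mean score within 500 bp of the start and the share of the locus in CpG-rich windows (%). ISL1 at 445 bp and HAND1 at a score of 36.0 lie far to the right of their grey bars, and in the CpG panel all points but that of MEF2C do.

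Over the whole loci, the positions were about as dense as elsewhere. The 7 loci held 4.36 to 5.47 positions per kb of sequence, with a median of 5.34 against 5.17 over all protein-coding genes. TBX5 was the densest, with 408 positions in 74.5 kb, followed closely by HAND1, with 127 in 23.3 kb, and GATA4, with 561 in 103 kb. HAND2 had 135 positions in 25.3 kb and NKX2-5 had 119 in 23.2 kb. ISL1, with 151 positions in 31.3 kb or 4.83 per kb, and MEF2C, with 904 in 207 kb or 4.36 per kb, were the sparsest. The median percentile was 68.1 by promoter GC but 41.4 when genes were compared by the GC of the whole locus, where NKX2-5 was at 10.0 and TBX5 at 78.3. The median thus turned with the GC used for the comparison, and of the 7 loci only HAND2 changed side, from 68.1 to 24.6.

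The median score of a locus was 18.5 at NKX2-5 and HAND1, 17.3 at GATA4 and HAND2, 16.0 at TBX5, 14.8 at ISL1 and 13.6 at MEF2C, against 16.0 for the median protein-coding gene. Neighbours in this order lay 1 step apart or less. MEF2C had the lowest locus GC, 36.1%. Its rank depended on the comparison more than that of any other member, at percentile 26.2 by promoter GC and 87.7 by locus GC. Its score was only 1 step below the median of the compared genes, 14.8, in the first case. In the second it was 1 step above their median, 12.3, as many genes share the same stepped score. HAND2 moved the other way, from 66.4 to 16.4, with a locus GC of 50.7%. NKX2-5, TBX5 and GATA4 also fell below percentile 50, from 70.6 to 36.9, from 50.1 to 27.9 and from 56.3 to 42.3. In percentiles, 5 of 7 loci were thus above the middle by promoter GC and 5 of 7 below it by locus GC. By locus GC, however, all 7 scores lay 1 step or less from the median of their compared genes. Those of NKX2-5, GATA4, HAND1 and ISL1 equalled it. By promoter GC only NKX2-5 and ISL1 lay further away than 1 step. These changes of side are therefore not read as differences. Of the 2405 positions, 57.0% were at or above the median score of the list (95% Wilson interval 55.0% to 58.9%, for counting error only and with positions taken as independent), against 50.6% of the whole list, which is not matched to the loci on GC. Without MEF2C, which gives 904 of them, the share was 63.6%. Scores in coding sequence were highest at NKX2-5, with a median of 28.4 over 5 positions, and at HAND1, with 26.5 over 4, and lowest at TBX5, with 13.6 over 9. The median over the coding sequence of all protein-coding genes was 17.3.

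In most of these loci CpG-rich sequence made up a far larger share than in genes with the same promoter GC. Windows of 500 bp with a GC content of at least 55% and an observed to expected CpG ratio of at least 0.65 covered 34.1% of the NKX2-5 locus, 32.1% of HAND2, 24.1% of HAND1, 13.7% of ISL1, 11.9% of GATA4 and 10.1% of TBX5. Their percentiles were 99.6, 99.9, 98.0, 92.3, 88.7 and 89.3. MEF2C, with 0.628% at percentile 39.9, was the exception. The median gene had 2.78%. The compared genes were not matched on length, and a CpG-rich stretch of a given length is a larger share of a shorter locus. In length these windows covered 12.3 kb at GATA4, 8.1 kb at HAND2, 7.91 kb at NKX2-5 and 7.5 kb at TBX5. They covered 5.6 kb at HAND1, 4.3 kb at ISL1 and 1.3 kb at MEF2C. At NKX2-5 the windows covered the whole gene body, and at HAND1 80.7% of it. This is a property of the genome sequence and not of the cells.

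The median score in CpG-rich windows was above that of the rest of the same locus at 6 of 7 genes, by 1 step of the score at TBX5, which is not read as a difference, and by more at the other 5. The medians were 23.4 inside against 17.3 outside at HAND1, 22.2 against 14.8 at HAND2, 21.0 against 13.6 at MEF2C (6 positions inside), 17.9 against 13.6 at ISL1, 20.4 against 17.3 at GATA4 and 17.3 against 16.0 at TBX5. NKX2-5 went the other way, with 17.3 inside over 38 positions and 19.7 outside over 81. Over the 14295 protein-coding loci with at least 1000 bp of CpG-rich sequence and a value on both sides, 72.2% had the higher median inside, with a median difference of 2.47, and 61.1% had it by more than 1 step. When the mean score of all autosomal positions with the same GC content in 147 bp was subtracted from each score, the mean inside was below 0 at 5 of 7 genes, from -2.86 at TBX5 to 1.76 at HAND1, and 55.1% of the loci were below 0. These 5, all but HAND1 and HAND2, also had a lower mean inside than outside after the subtraction, against 58.7% of the loci. The means were -1.21 inside and 0.463 outside at GATA4, -1.20 and 1.08 at MEF2C, -2.82 and -0.147 at ISL1, -2.86 and -0.0439 at TBX5, and -1.29 and 1.19 at NKX2-5. As medians and means can differ, both were set side by side after these values were seen. The mean of the deposited scores was higher inside at 7 of 7 genes, against 81.9% of the loci, by less than 1 step at NKX2-5, with 20.3 and 19.6. The median of the scores after the subtraction was lower inside at the same 5 genes, against 63.0% of the loci. At MEF2C it was lower by less than 1 step. At GATA4 and ISL1 the direction thus turned with the subtraction whether means or medians were taken. At TBX5 and MEF2C it turned for the means only. The deposited means of TBX5 were 18.6 inside and 17.0 outside, while its deposited medians lay 1 step apart. The medians of MEF2C after the subtraction, -0.367 inside over 6 positions and 0.224 outside, are not read as different. The packing inside the windows differed among the genes, from 6.18 positions per kb at GATA4, at percentile 94.3, to 4.80 at NKX2-5 and 4.62 at MEF2C, at 38.2 and 36.5.

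**Figure D3:**
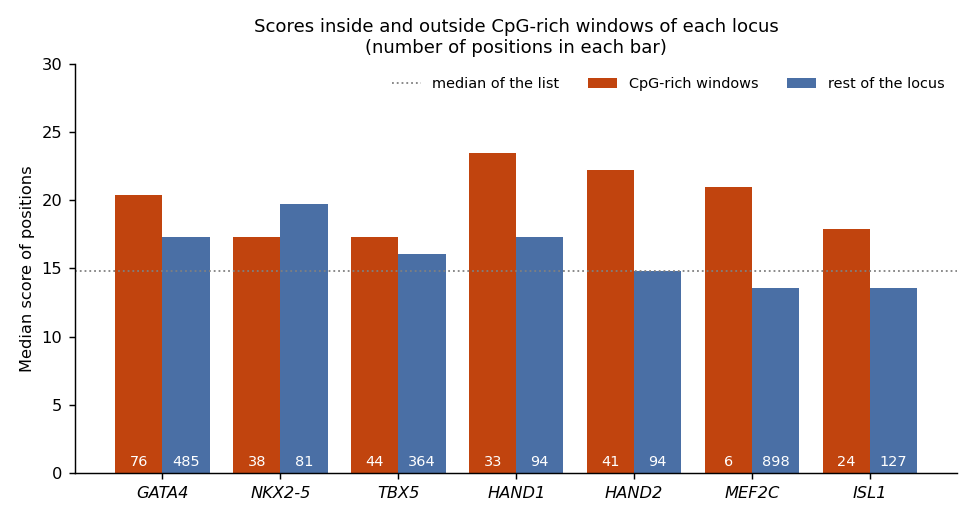
Median score of the positions inside CpG-rich windows (orange) and in the rest of the locus (blue) for each gene, with the number of positions in each bar; the dotted line is the list median of 14.8. The orange bar is the higher one at every gene but NKX2-5, by only 1 step of the score at TBX5. The order of the medians turns at GATA4 and ISL1 when the mean score at the same GC is subtracted. At MEF2C the medians then lie less than 1 step apart.

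The same subtraction left the order of the start regions much as it was. HAND1 remained highest, 14.2 above the mean of positions with the same GC and at percentile 96.8, followed by NKX2-5 at 5.94 and MEF2C at 3.45. HAND2 was at 1.12 and TBX5 at -0.723. GATA4 at -2.75 and ISL1 at -3.64 were lowest, at percentiles 22.9 and 15.5. HAND1 and ISL1 kept the ends of the order.

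The median distance from one midpoint to the next was 170 bp at GATA4, NKX2-5 and TBX5, 177.5 bp at HAND1 and HAND2, 182.5 bp at ISL1 and 190 bp at MEF2C, against 180 bp over the autosomes. Distances over 400 bp made up 9.33% of those at ISL1, 7.97% at MEF2C and 4.24% at NKX2-5, and 1.23% to 1.61% at the other 4, against 5.97% over the autosomes. ISL1 was at percentile 93.6 of genes with its promoter GC and at 94.0 by locus GC. MEF2C was at 82.7 and 43.5, and NKX2-5 at 67.7 and 95.4. The 14 such distances at ISL1 reached at most 580 bp, so they were many and short. At MEF2C the 3 widest were 3720, 3260 and 2360 bp, at the 5′ end of the gene and upstream of it, with a GC content between positions of 31.1%, 33.6% and 37.6% and no unsequenced bases. The 10 kb upstream of MEF2C held 7 positions, where the other 6 genes had 49 to 58 and the median gene 52, and 2.42% of protein-coding genes had 7 or fewer. Whether these stretches had no called nucleosome, were removed as blacklisted or could not be mapped cannot be told apart from the list. At the other 6 genes the widest distance was 450 to 670 bp.

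The highest-scoring positions lay apart from the canonical start in most of these loci, where only 4 to 7 positions lay within 500 bp of it. HAND1 was the exception, with its highest scores, 49.4 and 48.1, centred 454 bp upstream and 66 bp downstream of the start. At GATA4 the highest, 50.6, was in an intron from 11746622 to 11746761, 42489 bp downstream of the canonical start. A score of 48.1 was found both 42159 bp downstream and 821 bp upstream of that start. TBX5 had its highest, also 50.6, in an intron from 114396632 to 114396771, 9443 bp downstream of its start and outside CpG-rich windows. Both exceeded 99.9% of the list. At HAND2 the start-flanking position shared the highest score, 41.9, with one 1568 bp downstream. At NKX2-5 the highest, 40.7, was in coding sequence 1825 bp from the start and again in the downstream flank. MEF2C and ISL1 had the lowest maxima, 38.2 and 37.0, and at ISL1 the highest was shared by 1 position in coding sequence and 2 in the downstream flank.

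A list of 31 other regulators of heart development gave the setting for these 7. Its median distance across the start was 230 bp and its median start-region score 18.5, with 25 of 31 below the middle of genes with their promoter GC, against 4 of 7 here. The lowest were TBX1, at 8.02, and PRDM16, at 13.6, and the highest was MESP1, at 32.1. In all, 10 of the 31 were below ISL1, the lowest of the 7 genes, and HAND1 at 36.0 was above each of the 31. TBX18, at 430 bp, and PRDM16, at 420 bp, had the widest distances of the list and ISL1 was wider than either. A distance over 300 bp was found at 7 of the 31, a covered start at 14 and a top 5% position within 1 kb at 23, against 27.1%, 50.6% and 75.2% of protein-coding genes. In CpG-rich sequence the list resembled the 7 genes, with a median of 12.0% of the locus, 28 of 31 above the middle and 13 above percentile 90, where 4 of the 7 were. The core pluripotency factors, which these cells use, had start-region scores of 22.7 at POU5F1, 20.2 at SOX2 and 17.9 at NANOG, with 290, 230 and 260 bp across the start. These lie within the range of the 7 heart genes, and with 3 and 7 genes and 1 list no difference between the groups can be shown.

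**Figure D4:**
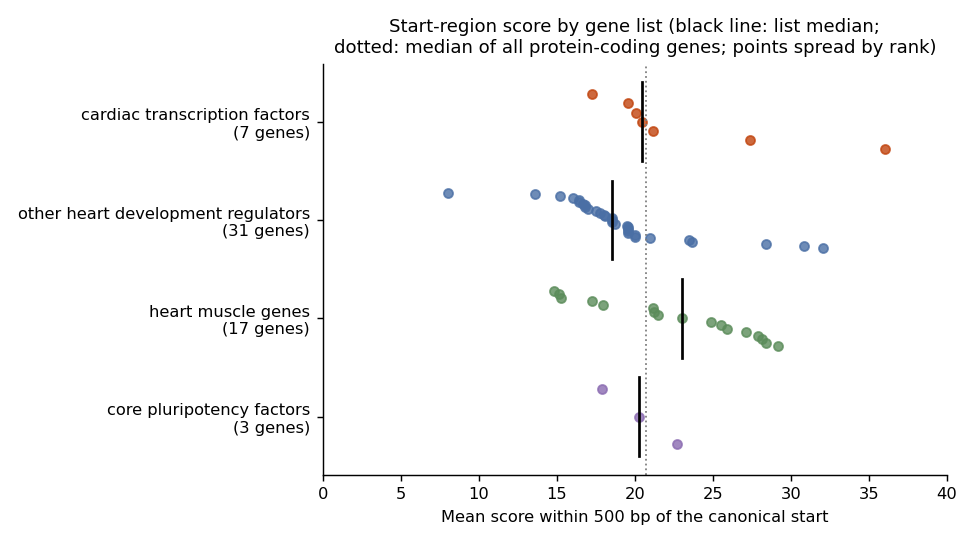
Mean score within 500 bp of the canonical start for the genes of 4 lists (points, spread by rank within a list), with the list median (black line) and the median of all protein-coding genes (dotted line, 20.7). The 7 cardiac transcription factors reach from 17.3 to 36.0, and most of the 31 other heart development regulators lie left of the dotted line.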

How the data were processed

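Undifferentiated hiPSCs were digested at 5 MNase concentrations, and the authors trimmed the reads with Trimmomatic 0.40, aligned them to GRCh38 and passed them through the nucMACC workflow on Nextflow, leaving out blacklisted regions. The deposited file is 1 list of positions from pooled libraries, whose score is a signal that is never negative. The authors took the shallower runs with short reads no further, but which runs were pooled for the list, the program that called the positions and the scaling of the score are not given in the sources used here. The list was used whole, with midpoints 70 bp from the interval start, on the start of the Ensembl canonical transcript of GENCODE 44. Coordinates are 1-based.

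The 7 genes and the gene lists were chosen with earlier results of these data known. All 7 genes are named, POU5F1, SOX2 and NANOG beside them, and of the other lists only the genes with the highest and lowest start-region scores (2 each of the regulators, 1 each of the heart muscle genes) and the 2 regulators with the widest distance. A gene that this rule would name is not reported here. The list has no replicate, so no test was run, and an alternative was judged against the SD of the same summary over 22 autosomes, or, for the share of positions at or above the list median, against its Wilson interval, and for the count of midpoints upstream against a range of 1.5 times either way. Percentiles are mid-ranks with the 7 genes left out. Scores less the mean at the same GC used all autosomal positions. Calculations used Python 3.11.15, NumPy 2.4.6, pandas 2.3.3, SciPy 1.17.1 and matplotlib 3.10.9, and were tested on simulated data, where 200 of 200 distances across a start were recovered. The alternatives were other starts, windows, positions, flanks, GC conditions and CpG criteria.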

Additional observations from a re-analysis of the deposited data

How the results depend on the processing

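No paired analysis was possible because libraries were pooled before positions were called, so leaving out a library was not possible either. Of 48 alternatives for 11 values, 32 stayed within the range set for their value (the SD over autosomes, a Wilson interval for the share of positions or 1.5 times for the count of midpoints upstream) and 16 moved, and 2 of the 48 were chosen after seeing the data. The cause of the moves was not tested. The median distance across the start, 250 bp, was 330 bp with the 5′-most start, 220 bp with every distinct start and 320 bp with only the higher-scoring positions (from the list median up), which must widen it. Its median percentile, 57.5, was 79.2 with the 5′-most start and 43.8 with those positions. The start-region score, 20.5, was 22.0 with the 5′-most start, 19.1 within 250 bp and 18.7 within 1000 bp. Its percentile, 42.1, was 48.5 with no GC condition and 49.0 with scores less the mean at the same GC. Positions per kb, 5.34, were 3.55 with the higher-scoring positions, and their percentile, 68.1, was 41.4 with the same GC over the locus and 50.7 with 50 kb on each side. The percentile of the locus score, 56.3, was 41.9 with the same GC over the locus. The share at or above the list median, 57.0%, was 54.0% in the gene body and 63.6% without MEF2C. The percentile of CpG-rich sequence, 92.3, stayed between 89.6 and 98.3 in its 5 alternatives, and the count of midpoints upstream and the locus score also kept within their ranges. The depth behind a score is unknown, which limits every value at a single position.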

Other observations

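The 17 genes of a heart muscle list, which holds genes of the sarcomere, of calcium handling and of secreted hormones, differed from the 7 transcription factor genes in several values of the same list. Their start-region scores ran from 14.8 at PLN, the inhibitor of the calcium pump, to 29.2 at MYH6, a heavy chain of heart myosin. The median was 23.0, and 11 of 17 were above the middle of genes with their promoter GC. PLN, with a promoter GC of 30.8%, was itself at percentile 82.1 of such genes, and MYH6 at 88.2. The median distance across the start was 200 bp and none passed 300 bp, against 3 of the 7 factors and 27.1% of all protein-coding genes. Their loci, which were not matched to those of the factors on length, held a median of 1.63% CpG-rich sequence, against 13.7%. They had a median score of 19.7, against 17.3. These are descriptions of 1 list, and the differences were not tested.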
